A study of Mus musculus with 5 samples.

Results

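The genes described here are 9 marker genes of hippocampal pyramidal neurons, read out in 5 RNA-Seq libraries of mouse dentate gyrus (DG). They were chosen by symbol from the 23420 genes of the series, with earlier results of the same libraries known, as a gauge of neighbouring tissue that a dissection of the DG may take along. Fibcd1 was included for its opposite direction in the complex environment and in running, so its values against the locked-disk control are given as a description. All 9 genes had a mean regularized log (rlog) value of at least 5 over the 5 libraries, as did 13550 genes in all. Of the 9, 6 (Fibcd1, Wfs1, Pou3f1, Man1a, Mpped1 and Spink8) are treated as CA1 genes and 3 (Iyd, Bok and Coch) as CA3 genes. The files name no hippocampal field, so this assignment is background that was not tested here, and it is least certain for Man1a, Iyd and Coch.

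All mice were wild-type males of the outbred CD1 strain, given as 4 months old by the labels, and were kept in their housing for 4 weeks. LD mice lived alone with a locked disk, RUN mice lived alone with a running disk, and CE mice lived in groups with a locked disk and tunnels. Each of these libraries was made from pooled RNA of 8 mice. L-RUN and H-RUN were pools of the 4 runners with the lowest and the 4 with the highest distances, so they hold RNA of the same 8 mice as RUN. There was 1 library per group and no replicate library, so no p-value was computed. Read counts were not analysed here, so the depth of each library is unknown.

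The hippocampus proper, or Ammon's horn, is a folded sheet of pyramidal neurons that lies against the DG. Granule cells of the DG send mossy fibres to CA3 pyramidal neurons, and these project through the Schaffer collaterals to CA1. CA1, CA3 and granule neurons are told apart by sets of genes that each class uses and the others use little or not at all. In bulk RNA, fewer cells of a class and less RNA per cell cannot be told apart.

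An rlog value is on the log2 scale, and a difference is the rlog value of 1 library minus that of another. The spread between mice cannot be had from these files. The only measure of error came from RUN, which repeats the RNA of L-RUN and H-RUN: its distance from the mean of their linear levels was scaled to a technical SD for differences between any 2 libraries. For the 9 genes this SD lay between 0.036 (Wfs1, Mpped1 and Bok) and 0.047 (Pou3f1 and Man1a). A difference past 0.3 in either direction, the limit of the study's methods and a ratio of 1.23, is called a change, and values within 2 technical SD of each other are described as not apart.

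The members were expressed in every library, most of them in the lower part of the range of expressed genes. Man1a was at the 20.1 percentile, Coch at 22.7, Iyd at 25.5, Spink8 at 34.6 and Fibcd1 at 49.2. Wfs1 (61.7) and Mpped1 (65.3) lay higher. Divided by the length of the longest transcript, the mean level on the log2 scale was highest for Bok at 9.77, at the 83.2 percentile of expressed genes with a length, and lowest for Pou3f1 at 5.89, at the 20.0 percentile. The median of the 6 CA1 genes was 7.46 per kilobase and that of the 3 CA3 genes 6.36, against 8.97 for 9 granule cell genes that include Prox1, the transcription factor of granule cell identity, C1ql2 and Calb1. None of the members was near 0, and none of the 9 granule cell genes was either.

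Fibcd1 encodes a membrane receptor with a fibrinogen-like domain that binds acetylated sugars such as chitin, and it lies on chromosome 2 (mm10, 31813290 to 31846005, minus strand). Its rlog value was 10.35 in LD and 10.66 in CE, while RUN had 9.89, L-RUN 9.90 and H-RUN 9.83. The 3 running libraries lay together below LD, not apart from each other, and CE lay above all of them. The difference from LD was 0.31 in CE and -0.46 in RUN, with a technical SD of 0.040. L-RUN differed by -0.46 and H-RUN by -0.52. On the linear scale this is 1.24 times the LD level in CE and 0.727 times in RUN. Fibcd1 was the only gene of 13550 that passed 0.3 upward in CE and downward in RUN (0.00738% of genes), which is how it came to be chosen. Set directly against each other, CE was 1.70 times as high as RUN, a difference of 0.77. Its rise in CE was only just past the limit, while the running differences were far from it.

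Wfs1 encodes wolframin, a protein of the endoplasmic reticulum membrane that takes part in calcium handling, and lies on chromosome 5 (36966104 to 36989205, minus strand). LD had an rlog value of 10.44, CE of 10.51, RUN of 10.41, L-RUN of 10.11 and H-RUN of 10.62. L-RUN was the lowest and H-RUN the highest, LD was not apart from RUN or from CE, and CE was apart from RUN (0.10). L-RUN differed from LD by -0.33 and H-RUN by 0.18 (technical SD 0.036), and H-RUN was 1.43 times as high as L-RUN.

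Pou3f1 encodes a transcription factor of the POU family, also called Oct6, on chromosome 4 (124656807 to 124660655, plus strand). It had its ends in the same libraries as Wfs1, with L-RUN at 7.53 and H-RUN at 8.05, and LD at 7.95, CE at 7.88 and RUN at 7.76 between them. L-RUN differed from LD by -0.42 and H-RUN by 0.10 (technical SD 0.047). Of all pairs of members, Wfs1 and Pou3f1 had the most similar profile over the 5 libraries, with a Euclidean distance of 0.127 between their centred values.

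Man1a, which encodes a mannosidase of the Golgi that trims N-linked sugars (chromosome 10, 53904785 to 54076609), also had L-RUN as its lowest and H-RUN as its highest library. LD had an rlog value of 8.34 and CE of 8.19, and the runners had 8.25 (RUN), 8.05 (L-RUN) and 8.42 (H-RUN). At -0.29, its difference in L-RUN stayed just short of the limit, and H-RUN was not apart from LD.

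Mpped1 encodes a protein with a metallophosphoesterase domain (chromosome 15, 83779467 to 83858494). LD had an rlog value of 10.51 and CE of 10.58, and the runners had 10.29 (RUN), 10.18 (L-RUN) and 10.39 (H-RUN). All running libraries were thus below LD, L-RUN by most (-0.33, technical SD 0.036), and CE was not apart from LD. Spink8, of a family of serine peptidase inhibitors (chromosome 9, 109812280 to 109826633), was the lowest of the members in rlog. It was highest in LD at 6.81, with 6.69 in CE, and the runners had 6.63 (RUN), 6.51 (L-RUN) and 6.67 (H-RUN). Its difference in L-RUN, -0.30, was only just past the limit, and RUN, H-RUN and CE were not apart from each other.

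**Figure D1:**
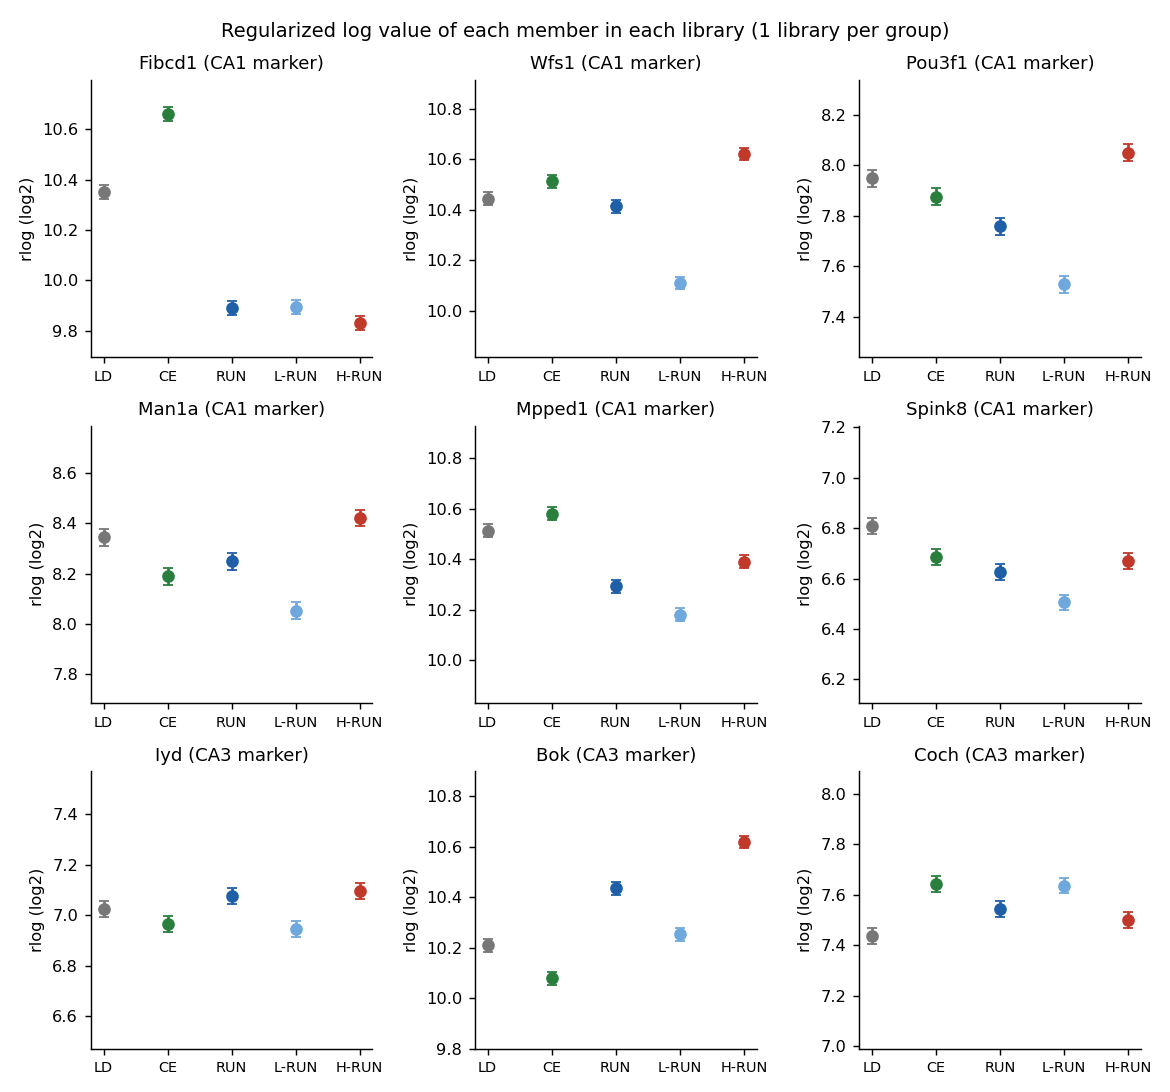
Regularized log value (log2) of each of the 9 genes in the 5 libraries, 1 point per library with a bar of 1 technical SD of a single library, every panel spanning the same 1.1 units. Fibcd1 is low in all 3 running libraries, and 5 other CA1 genes and the CA3 gene Iyd are lowest in L-RUN. Wfs1, Pou3f1, Man1a, Iyd and Bok are highest in H-RUN.

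Of the 3 CA3 genes, Bok and Coch followed other orders. Iyd had its lowest and highest libraries in common with Wfs1, Pou3f1 and Man1a, and its nearest member in profile was Man1a (distance 0.188). Bok, a member of the BCL2 family with a role in cell death (chromosome 1, 93685660 to 93695764), had an rlog value of 10.21 in LD and 10.08 in CE. The runners had 10.44 (RUN), 10.25 (L-RUN) and 10.62 (H-RUN). CE differed from LD by -0.13 and H-RUN by 0.41 (technical SD 0.036), 1.33 times the LD level, while L-RUN was not apart from LD. Iyd encodes iodotyrosine deiodinase, which recycles iodide in the thyroid (chromosome 10, 3540240 to 3554877). It varied least of all members, from 6.94 in L-RUN to 7.09 in H-RUN, with 6.96 in CE, 7.02 in LD and 7.07 in RUN. Coch encodes cochlin, a secreted protein best known from the inner ear (chromosome 12, 51593341 to 51605771). It was lowest in LD at 7.44, followed by H-RUN at 7.50, RUN at 7.54, and L-RUN and CE at 7.64 each. No difference of Iyd or Coch from LD reached 0.3, the nearest being 0.21 for Coch in CE.

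The stretch from 250 bases before to 50 bases after a RefSeq start site (GRCm38.p6) is printed for Fibcd1, Bok and Wfs1. These had the widest ranges among the members with a window. Of the 9 members, 7 had such a window, Pou3f1, whose range (0.52) was slightly above that of Wfs1 (0.51), and Spink8 not. Capitals mark GC boxes, GGGCGG or its reverse complement CCGCCC, and the E-box CAGATG or its reverse complement CATCTG. Sequences run 5′ to 3′ on the gene's strand, for Fibcd1 chr2:31845956-31846255 (minus), for Wfs1 chr5:36988933-36989232 (minus) and for Bok chr1:93685325-93685624 (plus). RefSeq start sites can differ from the gene positions given above, which come from GENCODE. The Wfs1 window lies largely inside that gene's span, which ends at 36989205, and the Bok window ends before its gene's start at 93685660.
Fibcd1: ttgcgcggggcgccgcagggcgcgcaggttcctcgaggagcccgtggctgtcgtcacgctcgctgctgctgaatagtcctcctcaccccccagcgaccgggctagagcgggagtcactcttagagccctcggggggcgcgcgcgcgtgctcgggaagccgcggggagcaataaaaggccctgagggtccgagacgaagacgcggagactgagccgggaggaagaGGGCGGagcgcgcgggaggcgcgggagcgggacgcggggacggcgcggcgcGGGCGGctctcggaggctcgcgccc
Wfs1: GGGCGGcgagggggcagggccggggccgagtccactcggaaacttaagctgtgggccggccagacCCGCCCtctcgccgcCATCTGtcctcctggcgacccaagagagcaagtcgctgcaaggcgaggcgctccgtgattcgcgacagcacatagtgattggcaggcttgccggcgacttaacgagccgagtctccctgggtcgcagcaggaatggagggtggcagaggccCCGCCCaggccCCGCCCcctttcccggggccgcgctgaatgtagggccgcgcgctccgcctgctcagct
Bok: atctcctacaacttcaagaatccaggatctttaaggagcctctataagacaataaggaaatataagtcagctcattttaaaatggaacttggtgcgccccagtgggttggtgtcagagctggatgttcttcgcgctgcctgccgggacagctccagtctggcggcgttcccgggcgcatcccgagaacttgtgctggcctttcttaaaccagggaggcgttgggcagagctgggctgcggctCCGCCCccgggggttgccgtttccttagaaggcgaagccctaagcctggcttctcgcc
A GC box was found in windows of 6 of the 7 members, and in 35.7% of all 32851 windows of this length. Fibcd1 held 2, Wfs1 held 4 and Bok held 1. The E-box was in 2 of the 7, Wfs1 and Iyd, and in 17.2% of all windows. The octamer ATGCAAAT, the sequence that POU factors such as Pou3f1 are known to bind, or its reverse complement ATTTGCAT, was in 0 of the 7 and in 1.74% of all windows. The Fibcd1 window had 46 CG pairs, that of Wfs1 30 and that of Bok 16, against a median of 7 over all windows. These matches describe the letters of the windows and bear on no difference between libraries.

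Across the housing groups, 9 of the 36 differences of members from LD reached 0.3, and 4 of these were of Fibcd1. In CE, 1 member was higher (Fibcd1), where 0.332% of expressed genes were, and 0 were lower, with 0.266% of genes. In RUN, 1 was lower, again Fibcd1 (0.952% of genes), and 0 were higher (0.362%). In L-RUN, 5 were lower, namely Fibcd1, Pou3f1, Wfs1, Mpped1 and Spink8 (2.33% of genes), and 0 were higher (0.797%). In H-RUN, Bok was higher (0.354% of genes) and Fibcd1 lower (0.472%). Between the environments, CE was higher than RUN by 0.3 for 1 member, Fibcd1 (0.539% of genes), and lower for 1, Bok (-0.36, 0.295% of genes). CE and RUN lay on opposite sides of LD, each by 2 technical SD, for the same pair of members and for 1.86% of genes. The 4 comparisons with LD share that library, and the members were chosen on these same values, so the counts describe the members and support nothing further.

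**Figure D2:**
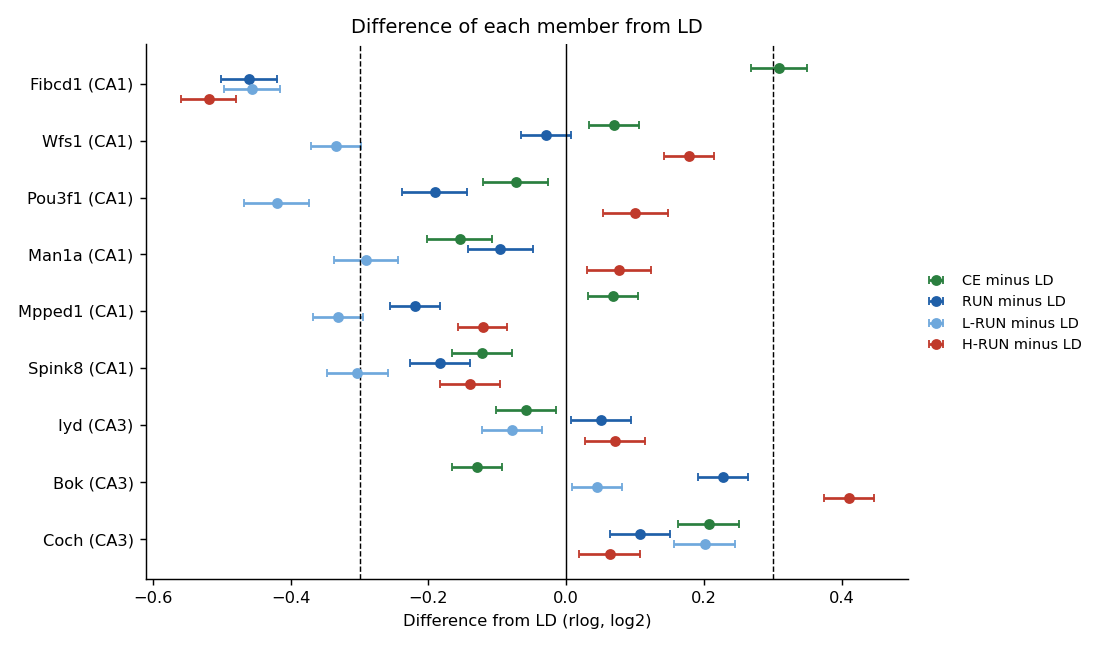
Difference of each gene from LD (rlog, log2; bars, 1 technical SD of a difference; dashed lines, -0.3 and 0.3) in CE, RUN, L-RUN and H-RUN. Only Fibcd1 lies past the limits in all 4 groups, and Bok passes in H-RUN alone.

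All 6 were below LD in L-RUN, with differences from -0.46 to -0.29, where 50.7% of expressed genes were below it, and L-RUN was the lowest of the 5 libraries for 5 of them, against 28.1% of genes. All 6 were below LD in RUN too (50.7% of genes), 3 in H-RUN (52% of genes) and 3 in CE (50.8% of genes). Their median difference was -0.33 for L-RUN, -0.19 for RUN, -0.02 for H-RUN and -0.003 for CE, beside medians of all expressed genes between -0.004 and -0.001. In H-RUN the 6 genes went in both directions. Wfs1, Pou3f1 and Man1a were above LD, with differences of 0.18, 0.10 and 0.08, and Fibcd1, Mpped1 and Spink8 below it, with -0.52, -0.12 and -0.14. For the CA3 genes the median was 0.11 for RUN, 0.07 for H-RUN, 0.05 for L-RUN and -0.06 for CE, with differences from -0.08 (Iyd) to 0.20 (Coch) in L-RUN.

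The low-distance and high-distance pools were then set against each other. H-RUN was higher than L-RUN by at least 0.3 for 4 of the 9 genes, Pou3f1 (0.52), Wfs1 (0.51), Man1a (0.37) and Bok (0.36), as for 0.974% of expressed genes, and lower for 0 of the 9 (0.561% of genes). The difference was 0.21 for Mpped1, 0.16 for Spink8, 0.15 for Iyd and -0.14 for Coch, and for Fibcd1 the pools were not apart (-0.06). Wfs1 and Pou3f1 were on opposite sides of LD in the pools, each time by 2 technical SD, as were 1.84% of genes. H-RUN was the highest library for 5 of the 9 members (Wfs1, Pou3f1, Man1a, Iyd and Bok), as it was for 14.7% of genes. L-RUN and H-RUN held different mice, sorted by the distance they ran, and what else differs between these mice cannot be told apart from distance.

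**Figure D3:**
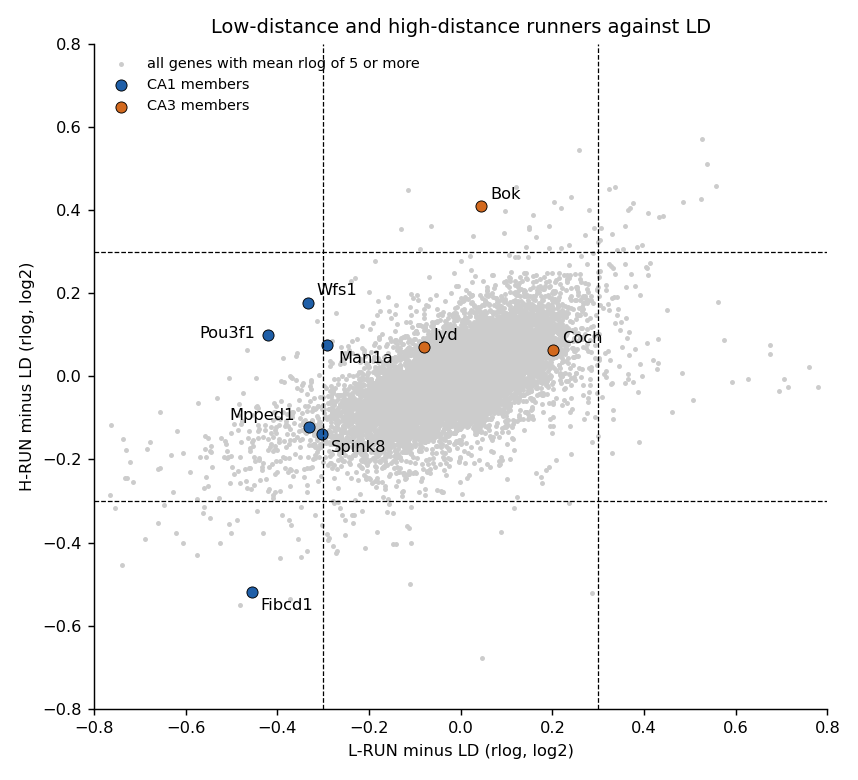
Difference from LD of L-RUN (horizontal) and H-RUN (vertical), rlog on the log2 scale, for 13550 expressed genes in grey, 8 of which lie outside the axes, with the 6 CA1 genes in blue and the 3 CA3 genes in orange. Wfs1, Pou3f1 and Man1a lie left of 0 and above it, Fibcd1 is far below 0 on both axes, and Bok is high in H-RUN only.

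RUN gave a second library of the runners' RNA. For all 9 genes its value lay between those of L-RUN and H-RUN, as it did for 58.3% of expressed genes. A mix of both pools should lie between them where they are apart, as they were by 2 technical SD for 8 of the 9. The position of RUN between the pools is thus no result about the members. RUN differed from the level computed for the mixture by -0.05 (Pou3f1) to 0.05 (Iyd), and for 9 of 9 genes by less than 2 SD of this residual. This SD was itself taken from the residuals of all expressed genes. Most genes therefore lie within 2 SD by construction, and the count is no result about the members. For Fibcd1 the computed difference from LD was -0.49 and the measured one -0.46, and for Bok they were 0.24 and 0.23. For Wfs1, whose pools moved apart, they were -0.06 and -0.03, so the pool of all runners showed little of what its parts did. RUN was not independent of these pools, since its RNA came from the same mice.

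**Figure D4:**
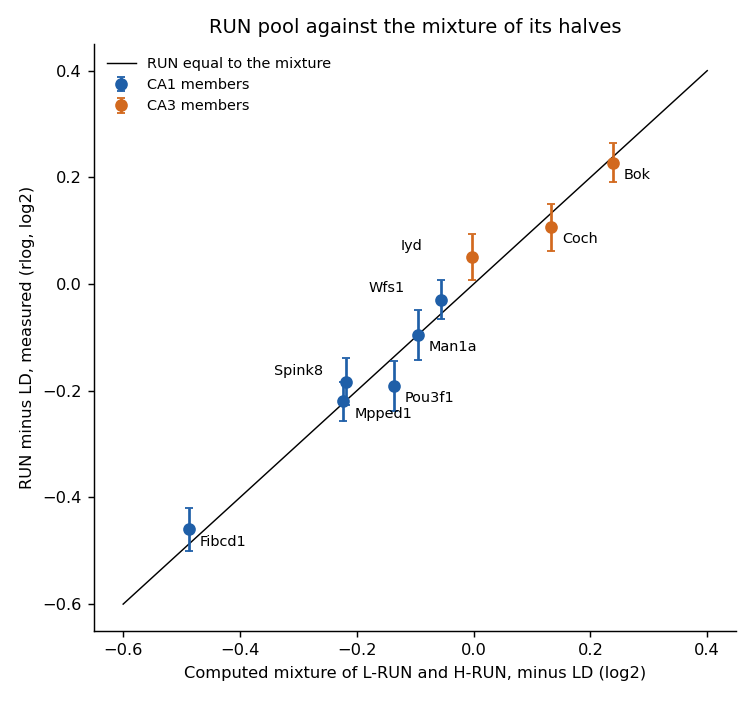
Measured difference of RUN from LD (vertical, rlog, log2; bars, 1 technical SD of a difference) against that of the computed mix of both pools (horizontal) for the 9 genes. All points lie near the line of equality, from Fibcd1 at -0.46 to Bok at 0.23.

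Other markers of the neighbouring fields were looked up from lists chosen with earlier results of these data known. Of 7 further CA1 genes, 6 were expressed. In L-RUN, 1 of them was lower by 0.3 (2.33% of genes), the receptor kinase gene Tyro3 (-0.32), and the median was -0.14. All 6 were below LD in RUN (median -0.12, 50.7% of genes) and in H-RUN (median -0.09, 52% of genes), where the CA1 members were divided. In L-RUN, 5 of these further genes were below LD (50.7% of genes). Their median difference between the pools, H-RUN minus L-RUN, was 0.02, beside 0.29 for the CA1 members. In CE, Crym, which encodes a thyroid hormone binding protein, was higher (0.34), as were 0.332% of genes. For Crym the runners had -0.03 (RUN), 0.04 (L-RUN) and -0.08 (H-RUN), the last apart from LD by over 2 technical SD. Nov, a secreted matrix protein, had the direction of Fibcd1 at smaller size, with 0.22 in CE and -0.25 in RUN. Of 7 further CA3 genes, 0 passed the limit against LD in any group, with a median of -0.11 in L-RUN and 0.0003 in H-RUN. In L-RUN, 6 of these 7 were below LD (50.7% of genes). Hs3st4 was nearest the limit there (-0.29), and its H-RUN minus L-RUN difference was 0.32, past the limit as for 0.974% of genes. The 2 genes that pyramidal neurons of several fields share were lower in L-RUN (2.33% of genes). The transcription factor gene Neurod6 was at -0.34 and Dkk3 at -0.36, and H-RUN had 0.17 and 0.06. Of 4 CA2 genes, 0 passed, and Rgs14 was nearest with -0.29 in L-RUN. The share of all expressed genes past the limit against LD ran from 0.266% (lower in CE) to 2.33% (lower in L-RUN). A count of 0 in lists this short is therefore no result about them.

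The lists for other cells moved with the same libraries in part. They too were chosen with earlier results of these data known, so their counts only describe the listed genes. In L-RUN, 5 of the 9 expressed leptomeningeal genes were higher by 0.3, where 0.797% of expressed genes were, and the median was 0.35. Among them were Fmod (1.01), Aldh1a2 (0.76), Slc6a13 (0.69) and Slc22a6 (0.63). The remaining gene of the list was below the expression limit. In RUN, 4 were higher (0.362% of genes), Fmod (0.60), Aldh1a2 (0.44), Slc6a13 (0.41) and Slc22a6 (0.35), with a median of 0.17. Dcn was higher in CE (0.37), where 0.332% of genes were. In H-RUN, 2 were lower (0.472% of genes), Dcn (-0.52) and Ogn (-0.68). The other 7 lay between -0.10 and 0.03, and the median was -0.005. The summed level of this list on the linear scale was 2184 in LD and 2416 in CE, with 2287 for RUN, 2842 for L-RUN and 1771 for H-RUN. That of the 6 CA1 genes was 4842 in LD and 5238 in CE, with 4186 for RUN, 3758 for L-RUN and 4537 for H-RUN. L-RUN thus had the highest leptomeningeal and the lowest CA1 sum. The lowest leptomeningeal sum was in H-RUN, where Dcn and Ogn were low. The highest CA1 sum was in CE, and it includes Fibcd1, which was chosen for its opposite direction in CE and in running. The CA3 sum was 1487 in LD and 1406 in CE, with 1707 for RUN, 1543 for L-RUN and 1890 for H-RUN. The part of other tissue in the differences of the members was not tested.

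Granule cell genes did not move as a block. In L-RUN, Prox1 was lower (-0.41) and C1ql2, a secreted synaptic protein of mossy fibres, higher (0.37), and the median of the 9 was -0.12. C1ql2 was also higher in RUN (0.37) and H-RUN (0.40), and in CE the median was -0.15 with 0 of 9 past the limit. The 6 oligodendrocyte genes were all below LD in L-RUN (median -0.20) and in CE (median -0.09), and 5 of them in RUN (median -0.10), with 0 past the limit in any group. Of all expressed genes, 50.7% were below LD in L-RUN, 50.8% in CE and 50.7% in RUN. Of 6 hilar mossy cell genes, 0 passed in any group. Among 7 interneuron genes, Sst was higher in CE (0.34) and L-RUN (0.30) and Npy in L-RUN (0.32). The neocortex list, with 4 of 5 genes expressed, had 0 past the limit, with Fezf2 just short of it in CE (0.299). The thalamus list, with 3 of 4 expressed, also had 0. Of 8 choroid plexus genes, 6 were below the expression limit, and Ttr was higher in CE (0.62).

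**Figure D5:**
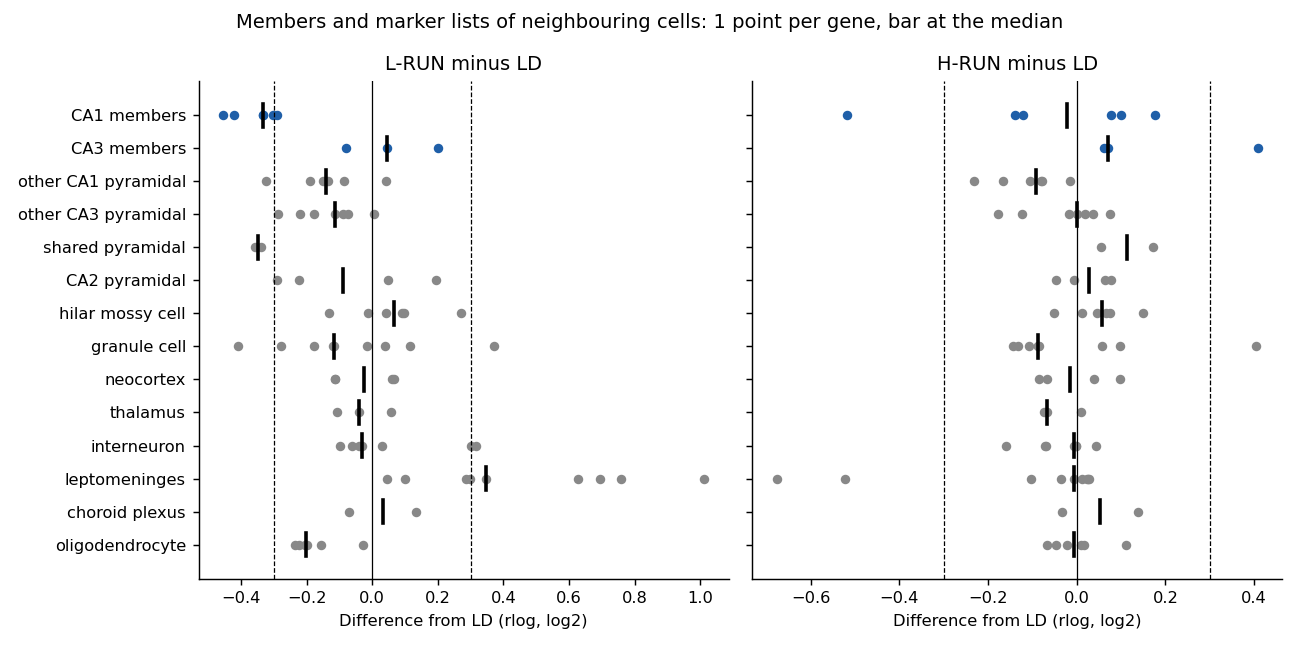
Difference from LD (rlog, log2) in L-RUN (left) and H-RUN (right) for each expressed gene of the members (blue) and of 12 marker lists (grey), with black bars at the medians and dashed lines at -0.3 and 0.3. In L-RUN the CA1 genes and the shared pyramidal genes lie on the low side and leptomeningeal genes on the high side, and in H-RUN the 6 further CA1 genes lie below 0 (median -0.09) and both shared pyramidal genes above it.

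The genes with the profile most like that of Fibcd1 over the 5 libraries, by Euclidean distance between centred values, were Grik3 (0.257), which encodes a kainate receptor subunit, Igfbp5 (0.290), an IGF binding protein, Kit (0.313), a receptor kinase, Kcnf1 (0.346), a potassium channel subunit, and Gabra3 (0.347), a GABA-A receptor subunit. Picked by likeness over these same libraries, they shared the low running values, with RUN minus LD from -0.50 (Igfbp5) to -0.20 (Kit). In CE they were at 0.05 for Grik3, -0.04 for Igfbp5 and 0.27 for Kit, all below the 0.31 of Fibcd1. The mean profile of the 6 CA1 genes was nearest to Klhl3 (0.026), an adaptor of a ubiquitin ligase, Egr3 (0.030), a transcription factor gene induced by activity, and Cacna1b (0.032), a calcium channel subunit. For these, L-RUN minus LD was -0.37, -0.33 and -0.32. The likeness is over 5 values that share the LD library and the runners' RNA. All these genes were picked on those values, so their shared directions follow from the selection.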

How the data were processed

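RNA of microdissected DG was pooled per group, and polyA RNA was sequenced from TruSeq libraries. Per the labels and the study's methods, the authors mapped reads to mm10 with TopHat 2.0.10, counted reads on RefSeq genes with HTSeq and normalized all 5 libraries together with DESeq2 1.10.1, and the submitters' processing notes also name CASAVA 1.8.2. The deposited values are regularized logs on the log2 scale, which shrink low counts towards the gene's mean. The size of this shrinkage was not measured here. The members and lists were chosen with earlier results of these data known.

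Differences of rlog values were taken between libraries and called at 0.3. Genes with a mean rlog of at least 5 served as background. The technical SD was the scaled median absolute deviation of RUN from log2 of the mean linear L-RUN and H-RUN level, per decile of mean rlog, with the residual variance divided by 1.5 and doubled for a difference. Transcript lengths and positions came from GENCODE M21 (GRCm38), with lengths for 94.2% of expressed genes and 9 members. Named genes were the 9 members, list genes past the limit or among the 2 highest of a list, the 5 nearest profiles to Fibcd1 and the 3 nearest to the CA1 mean. Fezf2 was named for a difference just short of the limit. The steps were checked on simulated data with the same noise for every gene and changes well past the limit. That check does not bear on calls near the limit. Alternatives were other limits, scalings, filters and baselines, and removal of the trend with length (lowess, fraction 0.3). Tools were pandas 2.3.3, numpy 2.4.6, statsmodels 0.14.6 and matplotlib 3.10.9 in python 3.11.15. With 1 pool per group, nothing here measures the spread between mice.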

Additional observations from a re-analysis of the deposited data

Results flagged for a closer look

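Opposite directions against LD, each by at least 2 technical SD, were found for 4 pairs of member and contrast, and none of these differences between groups could be tested with 1 library per group. CE and RUN lay on opposite sides of LD for Fibcd1, with CE minus RUN at 0.77, the value for which it was chosen. They did so for Bok in the other direction, with CE minus RUN at -0.36. Of all expressed genes, 1.86% met this description. L-RUN and H-RUN lay on opposite sides of LD for Wfs1, with L-RUN minus H-RUN at -0.51, and for Pou3f1, at -0.52, as they did for 1.84% of genes.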

How the results depend on the processing

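The number of members past the limit depended on the limit itself. With 0.4 in place of 0.3 it was 0 in CE and 2 in L-RUN, and with 0.2 it was 2 in CE and 3 in RUN. Each count stayed within 1.5 times under the other scalings, filters, baseline and length correction tried. In L-RUN the count was 5 once the trend with length was taken out, with Spink8 at -0.42 and Man1a at -0.24, and 4 against the averaged LD and CE values, where Spink8 was at -0.24. Removing the trend moved 11 of 36 differences of members by more than 1 technical SD, by at most 0.117 (Spink8 in L-RUN), and the LD and CE baseline moved 15 of 27, while quantile normalization and centring on the median moved 0. Ranking by Pearson correlation gave 0 of the 5 genes named as most like Fibcd1 and 1 of the 3 most like the CA1 mean. The technical SD had a median of 0.044 over the 9 members and was 0.036 as 1 value over all genes. No paired analysis was possible because each group is a single pooled library.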
